A study of Mus musculus with 9 samples.

Results

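The genes described here are 10 that govern where developing T cells go: the chemokine receptors Ccr9, Ccr7, Ccr4 and Cxcr4, the sphingosine-1-phosphate receptor S1pr1, the transcription factor Klf2, the integrin chains Itgb7, Itgae and Itga4, and Selplg, which encodes the selectin ligand PSGL-1. They were picked by name for their role in thymocyte homing and egress, with earlier results of these data known. Their probe sets were found through the platform annotation, taking those that carry exactly 1 gene symbol. All 10 were measured, by 19 probe sets, out of 18161 genes with a probe set of their own. A gene's level is that of its probe set with the highest mean over the 9 arrays, and all 10 passed the filter on dim probe sets that left 13288 genes for testing.

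Progenitors enter the thymus from the blood with the help of PSGL-1, CCR9 and CCR7, move between cortex and medulla along chemokines, and leave as mature T cells. In that last step KLF2 switches on S1PR1, whose ligand sphingosine-1-phosphate is abundant in blood and draws the cells out. Integrins are pairs of an alpha and a beta chain: ITGB7 pairs with ITGAE to bind E-cadherin on epithelium, or with ITGA4 to bind MAdCAM-1 on gut vessels, while ITGA4 with another beta chain binds VCAM-1.

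RNA of sorted mouse cells was put on 9 Affymetrix arrays. Each of the groups, named Control, Abnormal non-malignant or else NIC Tumor by the labels, has 3 arrays, in a study of T cell acute lymphoblastic leukemia and of NOTCH1 overexpression short of malignancy. NOTCH1 is the receptor that commits progenitors to the T lineage. The labels give no strain, age, genotype or vector for any group, do not spell out NIC, and name neither the sorted population nor the animals behind each array, so p-values measure only the spread between these samples, which may be technical. All values are log2 expression values as deposited; a difference of 1 is a 2-fold change, and values of different probe sets cannot be compared as levels. Precision is limited by how many arrays there are.

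Some arrays stood apart. Non-malignant arrays 2 and 3 were closer to each other (SD of the differences over the tested genes 0.16) than any other pair, the next being controls 1 and 3 (0.30), and counts are therefore also given with the former averaged. Tumor array 1 was nearer to each non-malignant array (0.46 to 0.47) than to tumor arrays 2 and 3 (0.63 and 0.79). Control array 2 alone carried the Y-linked gene Eif2s3y (8.69, at most 4.18 on the other arrays). The X-linked gene Xist was also measured there, at 10.27 against 12.38 to 13.30 on the other arrays. The sex and number of animals behind that array are not given. T lineage markers were measured on all arrays: all 8 genes of the list that had a probe set of their own, among them Cd3e and Thy1, exceeded the 40th percentile of each of the arrays, with list means from 11.07, on a tumor, to 12.03.

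Klf2 and S1pr1, the regulator of egress and its receptor, were higher in both abnormal groups than in controls. Klf2 read 8.19, 7.13 and 8.35 on control arrays 1, 2 and 3, then 9.99, 10.97 and 10.99 on the non-malignant arrays and 10.27, 10.49 and 11.04 on the tumor arrays. Every abnormal array lay above every control, and the tumor values fell within or next to the non-malignant range. Klf2 rose 6.77-fold in the non-malignant samples (log2 fold change 2.76 ± 0.38, SE, n = 3 each; limma adjusted p = 0.00333) and 6.53-fold in the tumors (2.71 ± 0.38; limma adjusted p = 0.00259).

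S1pr1, the receptor itself, read 5.55, 6.12 and 6.40 in controls, 7.51, 8.36 and 8.49 in non-malignant samples and 8.50, 8.68 and 9.43 in tumors. Controls were lowest and tumors highest, and the groups did not overlap, although the lowest tumor (8.50) and the highest non-malignant array (8.49) nearly met. S1pr1 rose by 2.09 ± 0.34 (SE) in non-malignant samples (limma adjusted p = 0.00802) and by 2.84 ± 0.34 in tumors (limma adjusted p = 0.00127). The step from non-malignant samples to tumors, 0.75 with a 95% interval from -0.01 to 1.51, did not pass (limma adjusted p = 0.198), nor did that of Klf2, -0.05 with an interval from -0.91 to 0.80 (limma adjusted p = 0.941). The S1pr1 step shrank to 0.45 without non-malignant array 1, to 0.47 without tumor array 3 and to 0.34 with array weights. The calls of Klf2 held under all 20 alternative settings in both comparisons. That of S1pr1 in non-malignant samples ended without non-malignant array 2 (1.98, limma adjusted p = 0.0531) or 3 (1.91, limma adjusted p = 0.0504) and with these averaged (1.94, limma adjusted p = 0.0515).

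**Figure D1:**
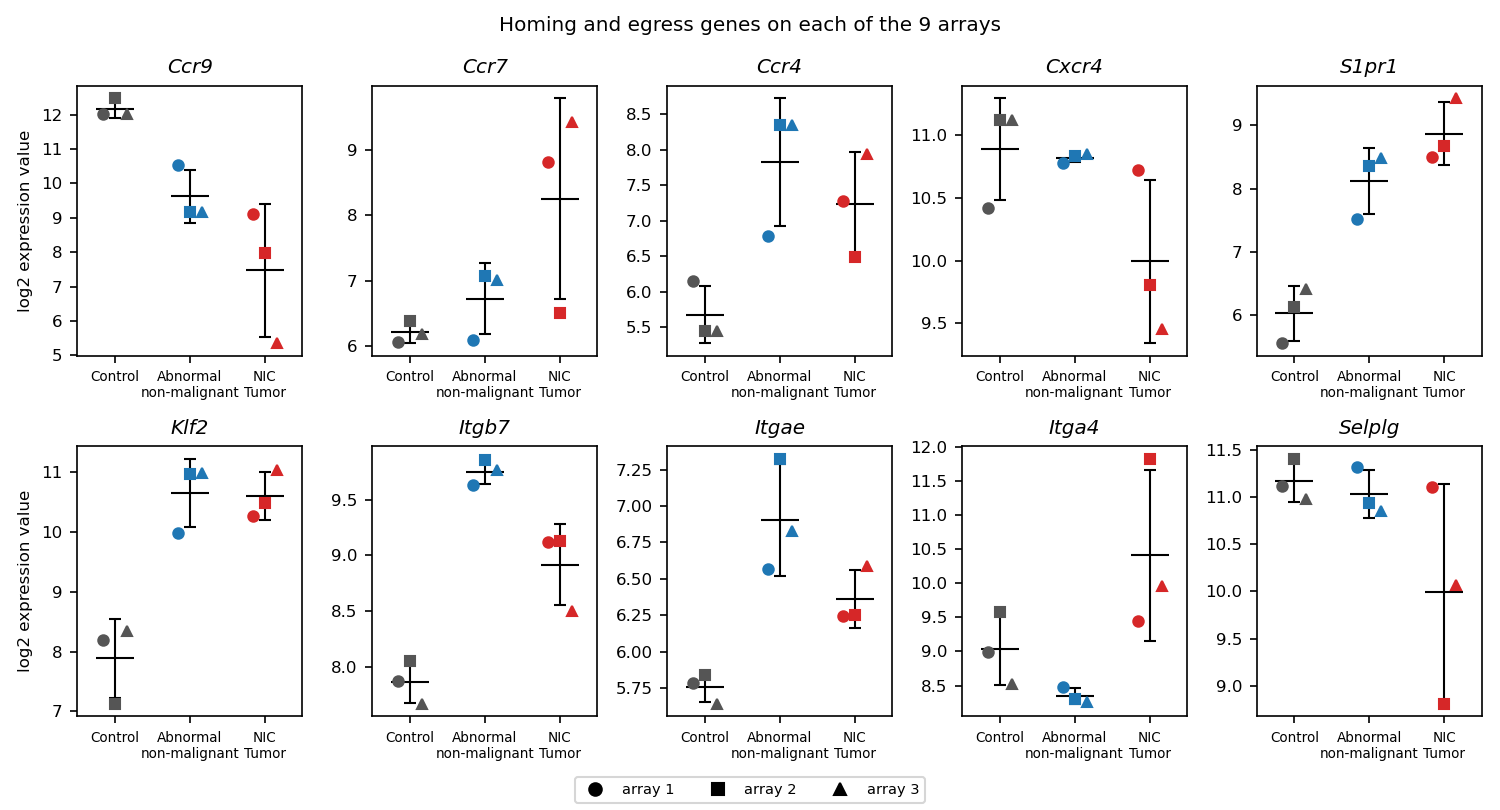
Log2 expression value of each gene on the 9 arrays, by group; symbols give the array number, the long bar the group mean and the whiskers its SD (n = 3), and each panel has its own scale. Klf2, S1pr1 and Itgb7 lie higher on all 6 abnormal arrays than on the 3 controls, Ccr9 lies lower on all 6, and the tumors are spread widely for Ccr7, Itga4 and Selplg.

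The integrin chains did not move together. Itgb7, the beta chain shared by both gut-homing pairs, read 7.87, 8.05 and 7.67 in controls, 9.63, 9.86 and 9.77 in non-malignant samples and 9.12, 9.13 and 8.50 in tumors. The 3 groups did not overlap, and the non-malignant samples were highest. Itgb7 rose by 1.89 ± 0.21 (SE) in non-malignant samples (limma adjusted p = 0.00107) and by 1.05 ± 0.21 in tumors (limma adjusted p = 0.0112), and both calls held under all 20 alternative settings. Between the abnormal groups it was 0.84 lower in tumors, with a 95% interval of the difference from -1.30 to -0.37, and just missed the threshold (limma adjusted p = 0.0555; 0.0183 without tumor array 1).

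Itgae, the alpha chain CD103 that completes the E-cadherin receptor, read 5.79, 5.84 and 5.64 in controls, 6.57, 7.33 and 6.82 in non-malignant samples and 6.24, 6.25 and 6.59 in tumors. All abnormal arrays lay above the controls, and the highest tumor array overlapped the non-malignant range. Itgae rose by 1.15 ± 0.20 (SE) in non-malignant samples (limma adjusted p = 0.012), and its difference of 0.61 ± 0.20 in tumors did not pass (limma adjusted p = 0.0704; 0.0464 without non-malignant array 2). The first call ended without control 1 (1.17, limma adjusted p = 0.0501), control 3 (1.09, limma adjusted p = 0.0639) or non-malignant array 3 (1.19, limma adjusted p = 0.0522). Its second probe set ran the same way, at 5.18 to 5.68 in controls, 6.31 to 7.20 in non-malignant samples and 5.32 to 6.31 in tumors, where it overlapped the controls. Between tumors and non-malignant samples the main probe set differed by -0.54 (limma adjusted p = 0.134; -0.33 without non-malignant array 2).

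Itga4, the alpha chain that binds VCAM-1 or MAdCAM-1, did not follow Itgb7. It read 9.0, 9.59 and 8.53 in controls, 8.48, 8.31 and 8.26 in non-malignant samples and 9.45, 11.83 and 9.96 in tumors. Non-malignant samples lay just under the controls, tumors lay above the non-malignant samples, and tumor array 2 stood far above all others. None of the differences passed: -0.69 ± 0.53 (SE) in non-malignant samples against controls (limma adjusted p = 0.736), 1.37 ± 0.53 in tumors against controls (limma adjusted p = 0.108) and 2.06 ± 0.53 in tumors against non-malignant samples (limma adjusted p = 0.0588). Without tumor array 1 the latter 2 passed, at 1.86 (limma adjusted p = 0.0224) and 2.54 (limma adjusted p = 0.00868), whereas without tumor array 2 they shrank to 0.66 (limma adjusted p = 0.202) and 1.35 (limma adjusted p = 0.0739). Array weights gave 2.53 and 3.20. The difference between non-malignant samples and controls was -0.42 without control 2 and -0.23 with the mean of the 5 probe sets. With that mean the difference between tumors and controls, 1.35, was called (limma adjusted p = 0.049). Against controls 3 of the 5 probe sets lay higher in tumors without overlap, with differences from 0.88 to 1.69 over all 5. Of the 5 Itga4 probe sets, 4 lay higher in tumors than in non-malignant samples without overlap, with differences from 0.87 to 2.16 over all 5, and tumor array 2 was the highest array on 4 of them. The remaining one was dim, under the 40th percentile on 8 of 9 arrays.

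The chemokine receptors fell into different patterns. Ccr9, the receptor for the thymic and gut chemokine CCL25, read 12.02, 12.48 and 12.03 in controls, 10.52, 9.18 and 9.16 in non-malignant samples and 9.12, 7.97 and 5.35 in tumors. The order was control, non-malignant, tumor with no overlap and with the tumors widely spread. Ccr9 fell 26.0-fold in tumors (log2 fold change -4.70 ± 0.79, SE, limma adjusted p = 0.00612), a call kept under all 20 alternative settings. The size of the fall was less stable. It was -5.52 to -3.63 with 1 array left out and -3.42 with the mean of the 5 probe sets. Tumor array 3, at 5.35, lay next to its 40th percentile (5.30). In non-malignant samples the difference of -2.55 ± 0.79 was not called when all 3 groups were fitted together (limma adjusted p = 0.152), a fit that draws its spread from the tumors too. It passed without tumor array 3 (limma adjusted p = 0.00898) and with controls and non-malignant samples alone (limma adjusted p = 0.00478), with the difference itself unchanged at -2.55. Tumors lay 2.14 below non-malignant samples, with a 95% interval of the difference from -3.92 to -0.37 (limma adjusted p = 0.135). That difference was -2.96 without tumor array 1 (limma adjusted p = 0.0172), -1.08 without tumor array 3 (limma adjusted p = 0.238), -0.88 with the mean of the 5 probe sets (limma adjusted p = 0.142) and -1.36 with array weights (limma adjusted p = 0.011).

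The probe set chosen for Ccr9 has the suffix x, which Affymetrix gives to sets with probes that can also match other transcripts, so the other 4 were read beside it. On all 5 probe sets both abnormal groups lay below the controls without overlap. The differences ran from -3.94 to -0.88 in non-malignant samples and from -5.18 to -0.74 in tumors. On 3 of the 5 the tumors also lay below the non-malignant samples, and the other 2 overlapped there. Of these 2, 1 was dim, under the 40th percentile on all 6 abnormal arrays. The other read 5.33 to 5.81 on them, where that percentile was 5.14 to 5.30, so a further fall could hardly show. With the mean of all 5 probe sets as the level of Ccr9, the fall in non-malignant samples was called (-2.54, limma adjusted p = 0.00238).

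**Figure D2:**
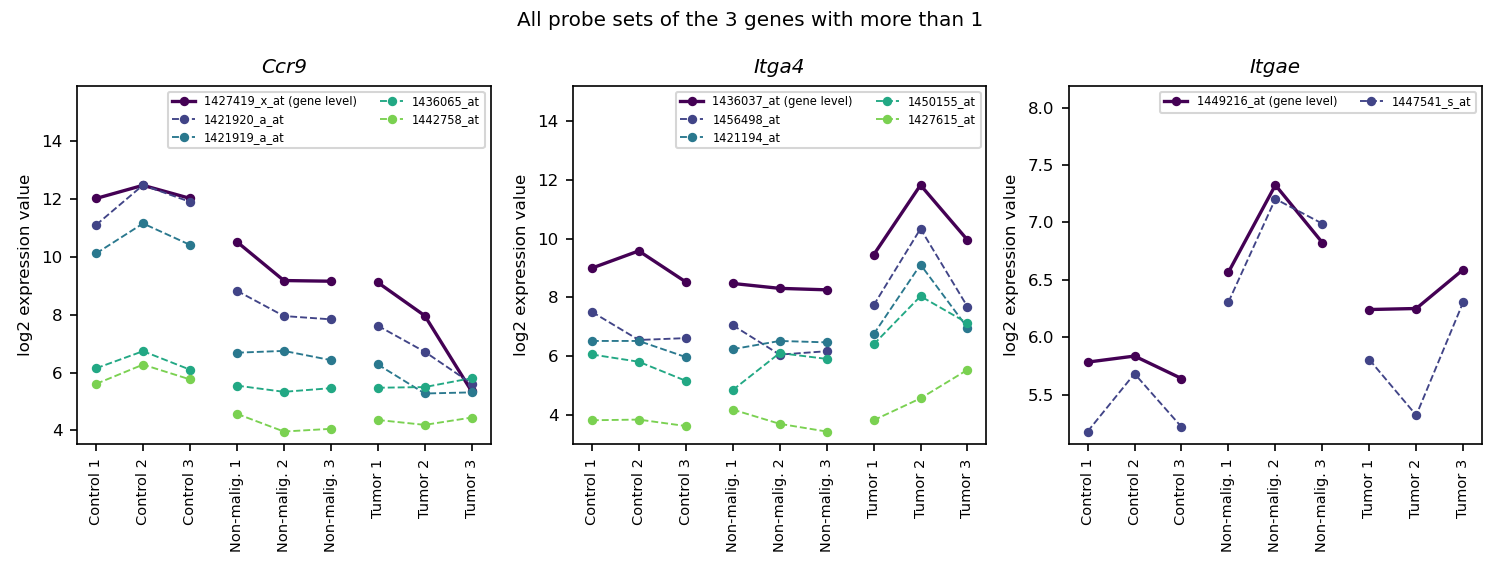
Log2 expression value of every probe set of Ccr9, Itga4 and Itgae on each array; solid lines are the probe sets used for the gene level, dashed lines the others, and lines join arrays of 1 group only. The 5 Ccr9 probe sets are all highest on the 3 control arrays, and tumor array 2 is the peak of 4 Itga4 probe sets.

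Ccr4, the receptor for CCL17 and CCL22 that guides thymocytes into the medulla, read 6.14, 5.44 and 5.45 in controls, 6.78, 8.34 and 8.35 in non-malignant samples and 7.27, 6.49 and 7.95 in tumors. Both abnormal groups lay above the controls and overlapped each other. Ccr4 rose by 2.15 ± 0.47 (SE) in non-malignant samples (limma adjusted p = 0.0378), and its difference of 1.56 ± 0.47 in tumors just missed the threshold (limma adjusted p = 0.0534; 0.027 without non-malignant array 1 and 0.043 without tumor array 2, the latter at 1.93). The call in non-malignant samples ended without control 1 (2.38), control 2 (2.03), control 3 (2.03), non-malignant array 2 (1.89) or non-malignant array 3 (1.89), with limma adjusted p between 0.0704 and 0.183. Tumors and non-malignant samples differed by -0.59 (limma adjusted p = 0.443), at -1.11 to -0.21 with 1 array left out and -1.60 with array weights (limma adjusted p = 0.00289), and array weights gave 0.90 for tumors against controls.

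Ccr7, which follows CCL19 and CCL21 into the medulla and lymph nodes, split the tumors. It read 6.06, 6.39 and 6.18 in controls, 6.09, 7.07 and 7.01 in non-malignant samples and 8.82, 6.51 and 9.43 in tumors. Tumor arrays 1 and 3 stood above all others, whereas tumor array 2 lay next to the controls and under non-malignant arrays 2 and 3. The differences from controls, 0.52 ± 0.62 (SE) in non-malignant samples (limma adjusted p = 0.887) and 2.05 ± 0.62 in tumors (limma adjusted p = 0.0539), did not pass. Without tumor array 2 the tumors passed against controls (2.92, limma adjusted p = 0.00147) and against non-malignant samples (2.40, limma adjusted p = 0.0115; 1.53 and 0.163 with all arrays). Without tumor array 3 the latter difference was 0.94 (limma adjusted p = 0.398), and array weights took the tumors to 0.75 against controls (limma adjusted p = 0.206) and to -0.06 against non-malignant samples. In non-malignant samples against controls it was 0.83 without non-malignant array 1 and 0.81 with array weights.

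Cxcr4, the receptor for CXCL12 that holds immature thymocytes in the cortex, differed least in the non-malignant samples. It read 10.42, 11.12 and 11.13 in controls, 10.78, 10.83 and 10.86 in non-malignant samples and 10.72, 9.81 and 9.45 in tumors. The non-malignant values lay inside the control range, and tumor arrays 2 and 3 lay under all others. The difference between non-malignant samples and controls was -0.07 with a 95% interval from -0.76 to 0.63, and those of the tumors were -0.90 ± 0.31 (SE) against controls (limma adjusted p = 0.0816) and -0.83 ± 0.31 against non-malignant samples (limma adjusted p = 0.138). Without tumor array 1 these passed, at -1.26 (limma adjusted p = 0.00514) and -1.19 (limma adjusted p = 0.00882).

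Selplg, whose product PSGL-1 carries sugars that selectins grip on vessel walls, read 11.12, 11.41 and 10.98 in controls, 11.32, 10.93 and 10.85 in non-malignant samples and 11.10, 8.81 and 10.07 in tumors. Tumor array 1 lay within the range of the other groups, tumor arrays 2 and 3 under it. The differences of -0.14 ± 0.46 (SE) in non-malignant samples (limma adjusted p = 0.983) and -1.18 ± 0.46 in tumors (limma adjusted p = 0.114) did not pass. Tumors lay 1.04 below non-malignant samples with a 95% interval of the difference from -2.07 to -0.01 (limma adjusted p = 0.191). Without tumor array 1 the tumors passed against controls (-1.73, limma adjusted p = 0.00632) and against non-malignant samples (-1.60, limma adjusted p = 0.0119), whereas without tumor array 2 the differences shrank to -0.59 (limma adjusted p = 0.244) and -0.45 (limma adjusted p = 0.4). Array weights gave -2.03 and -1.81.

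Counted over the 10 genes, 5 rose and 0 fell in non-malignant samples against controls, where limma called 3.53% of all genes tested (2.87% higher); at an unadjusted p under 0.05 there were 6, against 13.3% of all genes. The 5 were Klf2, S1pr1, Itgb7, Itgae and Ccr4. Their number was 3 without control 1, control 3 or non-malignant array 2, 2 without non-malignant array 3 and 3 with non-malignant arrays 2 and 3 averaged. In tumors against controls 3 rose (Klf2, S1pr1 and Itgb7) and 1 fell (Ccr9), where 15.7% of all genes were called (8.49% higher, 7.19% lower), and 7 were called without tumor array 1. At an unadjusted p under 0.05 there were 10, against 32.2% of all genes. Both comparisons use the same controls. Between tumors and non-malignant samples limma called 0 of the 10 (7 at an unadjusted p under 0.05, against 25.9% of all genes, 5 adjusted without tumor array 1, 1 without tumor array 2), against 4.23% of all genes (1.53% higher, 2.7% lower).

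In non-malignant samples 5 of the 10 lay above all controls and 2 below, without overlap, against 17% and 9.16% of all genes (26.1% in both directions). In tumors 6 lay above all controls and 1 below, against 18.2% and 14.3% (32.5%). Between the abnormal groups 2 lay higher in tumors and 3 lower, against 12.3% and 14.8% (27.1%). The median log2 fold changes in these comparisons were 0.83, 1.21 and -0.57, against 0.01, 0.06 and 0.03 over all genes tested. The 10 genes were chosen with earlier results of these data known, so these counts and medians are no independent evidence of an excess.

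**Figure D3:**
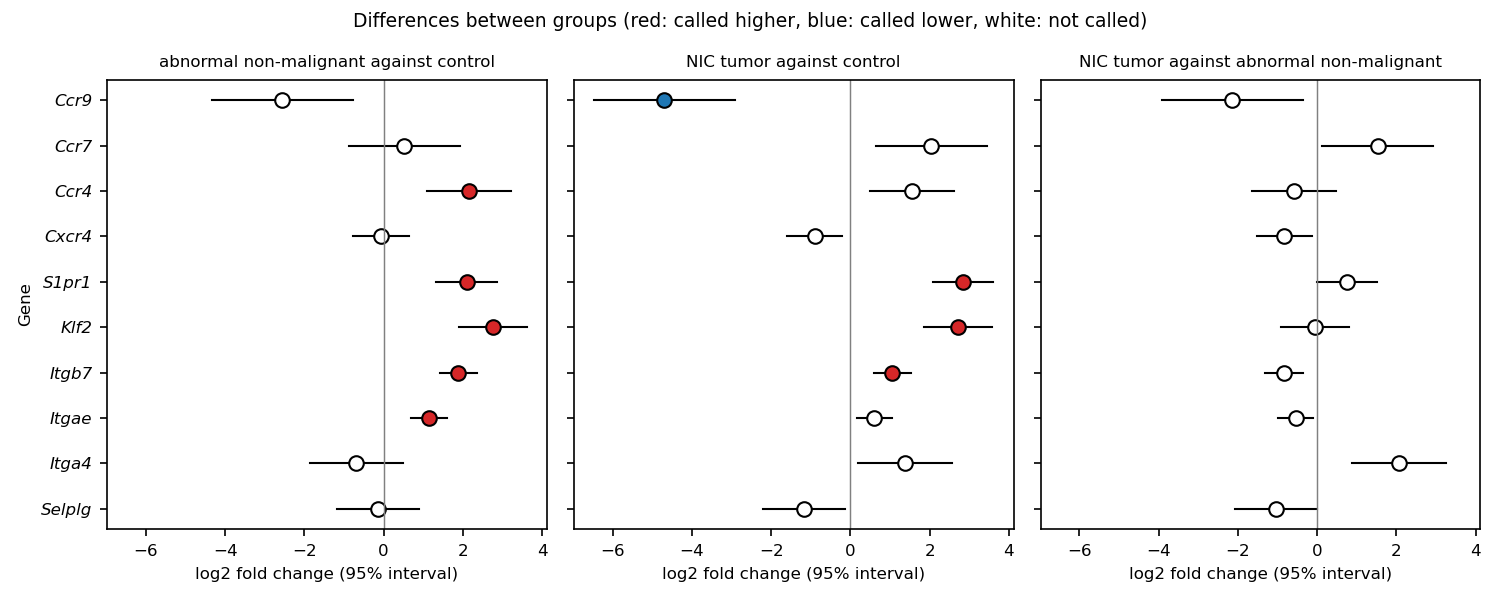
Log2 fold change of each gene with its 95% interval from the limma fit in the 3 comparisons; filled points passed an adjusted p under 0.05. Klf2, S1pr1 and Itgb7 are called higher against controls in both abnormal groups, Ccr9 is called lower in tumors, and no gene is called between the abnormal groups.

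The genes varied among the arrays of 1 group more than most. The median of their SDs was 0.33 among controls, 0.46 among non-malignant arrays and 0.69 among tumors; over all genes tested it was 0.17, 0.14 and 0.30. In the non-malignant group array 1 lay nearest to the controls for Klf2, S1pr1, Ccr4, Ccr9, Ccr7, Itgb7 and Itgae, with arrays 2 and 3 beyond it. In the tumor group array 3 was the extreme one for 8 of the 10 genes, with the lowest Ccr9, Cxcr4 and Itgb7 and the highest S1pr1, Klf2, Ccr7, Ccr4 and Itgae. Array 2 had the highest Itga4 and the lowest Selplg. Array 1 had the values nearest to the controls for Ccr9, Cxcr4, Itga4, Selplg, Klf2, S1pr1 and Itgae, the last at 6.24 against 6.25 on array 2.

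Promoters are shown for Klf2 and Itgb7, whose rise was called in both comparisons, and for Ccr9, which fell, so that the start regions of genes that moved together and apart can be set side by side. RefSeq (GRCm38.p6) gave a promoter for 6 of the 10 genes (Cxcr4, Itga4, Klf2, Ccr4, Ccr9 and Itgb7), and the 250 bases before the start were read. Capitals mark matches on either strand to CACCC, the core that KLF factors bind (GGGTG where the match is on the other strand).
Klf2, chr8:72318812-72319061, plus strand: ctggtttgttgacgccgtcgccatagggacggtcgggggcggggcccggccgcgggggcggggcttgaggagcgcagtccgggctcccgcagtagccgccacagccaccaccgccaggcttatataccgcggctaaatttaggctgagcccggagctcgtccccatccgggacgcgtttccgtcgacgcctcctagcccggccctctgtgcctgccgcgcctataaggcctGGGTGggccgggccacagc
Itgb7, chr15:102231936-102232185, minus strand: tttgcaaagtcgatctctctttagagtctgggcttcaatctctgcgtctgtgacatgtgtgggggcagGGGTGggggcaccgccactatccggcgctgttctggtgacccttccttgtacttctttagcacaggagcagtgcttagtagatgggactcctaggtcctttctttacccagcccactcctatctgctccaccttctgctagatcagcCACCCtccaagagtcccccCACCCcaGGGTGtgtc
Ccr9, chr9:123766961-123767210, plus strand: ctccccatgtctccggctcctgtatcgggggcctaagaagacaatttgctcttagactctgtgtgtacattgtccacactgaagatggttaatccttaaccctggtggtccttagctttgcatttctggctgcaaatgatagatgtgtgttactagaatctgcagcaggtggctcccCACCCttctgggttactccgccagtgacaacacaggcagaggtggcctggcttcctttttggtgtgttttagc

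CACCC was found in all 6 promoters, 12 matches in all: 4 each for Itgb7 and Itga4 and 1 each for Klf2, Ccr9, Ccr4 and Cxcr4. It is a short word that 52.0% of the 32851 promoters of the table hold. In the Klf2 promoter the match lay 15 to 19 bases before the start, in a stretch with 71.2% G and C, and in that of Itgb7 the nearest lay 5 to 9 bases before it. In the Ccr9 promoter, with 50.4% G and C, it lay 69 to 73 bases before the start. TGGGAA, the core of the site of RBPJ, the DNA-binding partner of NOTCH1, was in 0 of the 6 and in 21.6% of all promoters. These are matches of letters in this window and say nothing of binding.

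Beyond the 10, a wider set of 122 homing, adhesion and egress genes in 8 lists was read, also chosen with earlier results known. Of these, 115 had a probe set of their own and 100 were tested. In non-malignant samples 9 rose and 1 fell, with a median log2 fold change of 0.05, against 2.87% and 0.655% of all genes tested (3.53% in both directions). Gnaq was the 1 that fell (-0.91, limma adjusted p = 0.00736), a call kept under all 18 alternative settings that tested it. The count was 4 and 5 without non-malignant array 2 and 3, 6 without non-malignant array 1 or control 2, and 6 with non-malignant arrays 2 and 3 averaged. Cdh1 (3.15), which encodes E-cadherin, the ligand of the pair of ITGAE and ITGB7, read 6.24, 6.52 and 6.68 on non-malignant arrays and lay under the 40th percentile on all controls and tumors. Set against that percentile it rose by at least 2.43-fold. The measured difference of 3.15, not this bound, had limma adjusted p = 8.78e-06. Cdh1 and the chemokine receptor gene Cxcr5, both among the 9, passed the filter only through the non-malignant arrays, where they were high. Neither was tested when 1 of these arrays was left out. Foxo1 (1.55, limma adjusted p = 0.0433), a factor known to act upstream of Klf2 in T cells, rose, but its call ended without any 1 control or non-malignant array or tumor array 2, at 1.39 to 1.73 with 1 array left out.

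In the list of selectin ligand synthesis and scaffolds, 4 of 11 rose in non-malignant samples. These were Tpst2 (2.14), a tyrosine sulfotransferase, B4galt1 (1.63), a galactosyltransferase, and the adhesion molecules Cd44 (3.09) and Spn (1.30). Tpst2 and B4galt1 are steps in building the selectin-binding form of PSGL-1. Other enzymes of the list did not follow. Fut7 averaged 6.27 against 6.33 in controls, and Fut4 and Gcnt1 lay under the 40th percentile on all control and non-malignant arrays. In tumors B4galt1 (1.00), Tpst2 (1.21) and Tpst1 (0.66) rose, the last losing its call in 6 of 9 fits with 1 array left out, at 0.49 to 0.77. Selplg, the protein scaffold, was not called in either comparison. Of 12 integrin chains tested, Itgb5 was the 1 called in non-malignant samples (1.71), and it was 0.49 and not called with the mean of its probe sets (limma adjusted p = 0.053). Cxcr5, which leads to B cell follicles, was the 1 chemokine receptor called of 9 tested. Its measured difference was 0.92 (limma adjusted p = 0.00228). Against the 40th percentile, under which it lay on all controls and tumors, it rose by at least 1.19-fold. None of the 9 tested genes of S1P receptors and metabolism, such as S1pr4 and Cd69, was called by limma in any comparison (0 in non-malignant samples, 1 in tumors against controls and 1 in tumors against non-malignant samples at an unadjusted p under 0.05).

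In tumors against controls, 3 of the 100 rose and 14 fell (median -0.10), against 8.49% and 7.19% of all genes tested (15.7% in both directions). Klf10 (-2.77) and Klf3 (-2.15), zinc finger factors related to Klf2, fell, as did Foxo4 (-1.18) and Foxo3 (-0.81), in all 4 of 9 in the list of Foxo, Klf and maturation genes. In chemoattractant signalling and motility 6 of 27 fell, among them Rgs14 (-1.21) and Gnaq (-1.46, at least 2.13-fold as it lay under the 40th percentile on all tumors). In integrin activation 3 of 13 fell, among them Rasgrp1 (-2.29), which activates Ras and Rap, and Fyb (-0.97), an adaptor for integrin activation. Icam2 (-1.21), a ligand of the integrin LFA-1, fell alone among 10 chemokines and adhesion ligands. The call of Fyb ended without any 1 control, at -1.25 to -0.76 with 1 array left out, and that of Foxo4 without control 2, control 3, tumor 2 or tumor 3, at -1.36 to -1.0, and with the mean of its probe sets, at -0.51 (limma adjusted p = 0.124). Leaving out control 1, 2 or 3 changed the count over the wider set to 9, 11 or 8, and leaving out tumor array 1 to 37.

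Between tumors and non-malignant samples, 0 rose and 9 fell of the 100 (median -0.47; 50 at an unadjusted p under 0.05), against 1.53% and 2.7% of all genes tested (4.23% in both directions). Cdh1 (-2.90, at least 2.39-fold), Cxcr5, Icam2 (-1.20), Klf10 (-2.07), Klf3 (-2.48), Rasgrp1 (-1.51), Fyb (-1.09), Rgs14 (-0.87) and Arrb2 (-1.35), which encodes an arrestin that uncouples chemokine receptors, made up the 9. Here too Cdh1 and Cxcr5 passed the filter only through the non-malignant arrays, where they were high. With 1 array left out the call of Icam2 held in all 9 fits, that of Fyb ended in 7 of 9 and that of Klf3 in 8 of 9. The calls of Klf10, Rgs14, Arrb2 and Rasgrp1 ended without any 1 non-malignant array. Those of Klf10 and Rgs14 also ended without tumor array 2, and that of Rasgrp1 without control 3. The mean of all probe sets also ended those of Klf3 (-1.02, limma adjusted p = 0.0699) and Rasgrp1 (-1.22, limma adjusted p = 0.082). Arrb2 had risen in non-malignant samples against controls (1.36), a call that ended without control 1, control 2, non-malignant array 1 or non-malignant array 2. The count was 3 without non-malignant array 1, 1 without array 2 or array 3, 3 with these averaged, and 50 without tumor array 1.

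**Figure D4:**
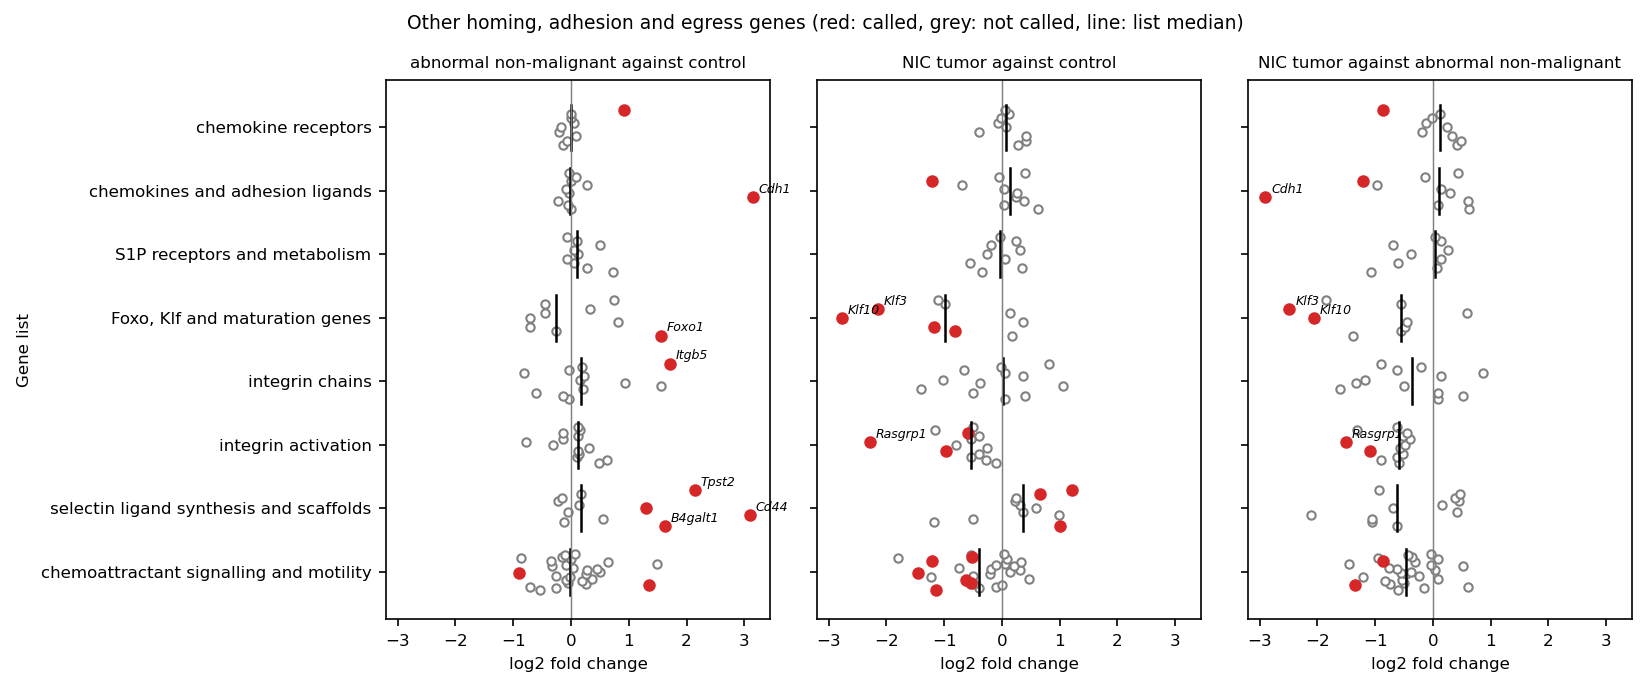
Log2 fold changes of the 100 tested genes of 8 homing, adhesion and egress lists in the 3 comparisons; red points were called by limma (adjusted p under 0.05), grey ones were not, and vertical bars are list medians. Named are called genes that differ by more than 1.5 on the log2 scale.

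Markers of other cells and stages moved along with these genes, and in bulk samples fewer cells of a type and less RNA per cell cannot be told apart. Mature T cells normally express Klf2 and S1pr1. Of 7 tested markers of these cells 3 rose in non-malignant samples and 2 in tumors; the list mean was 7.28 to 7.69 in controls, 8.37 to 8.64 in non-malignant samples and 8.15 to 8.60 in tumors. Of 8 markers of CD4+CD8+ thymocytes, the stage at which Ccr9 is high, 0 were called in non-malignant samples by limma (2 at an unadjusted p under 0.05) and 6 fell in tumors, where the list mean was 10.64, 8.79 and 8.17 against 11.54 to 12.05 in controls and 11.47 to 11.64 in non-malignant samples. Ccr9 and this list had the same order of arrays within the tumors. In non-malignant samples Ptcra ran against the rest of that list, at 12.19, 11.75 and 11.65 against 8.35 to 8.91 in controls. Its other measured markers had lower group means than in controls, from Rag2 (9.40 against 9.62) to Dntt (11.64 against 13.22). Of 5 tested NK cell markers 4 rose in non-malignant samples and 2 in tumors, with list means of 5.89 to 6.11 in controls, 7.59 to 7.71 in non-malignant samples and 6.46 to 7.06 in tumors; Klrd1 lay under the 40th percentile on all arrays. Of 11 tested myeloid markers 1, Ctss, was called higher in each abnormal group against controls (4 and 5 at an unadjusted p under 0.05). List means were 5.59 to 5.79, 6.45 to 6.47 and 5.85 to 7.04. S100a8 and S100a9, not called, averaged 8.02 and 7.46 in non-malignant samples against 5.25 and 4.85 in controls. Both were widely spread in tumors (SD 1.80 and 1.90), and the fit draws its spread from the tumors too. Itgam was under the 40th percentile on all controls and non-malignant arrays. The T lineage list was lower on all tumors (11.07 to 11.59) than on controls (11.78 to 11.97) and non-malignant arrays (11.92 to 12.03), with 3 of 8 markers, Thy1, Cd5 and Bcl11b, called lower in tumors against controls, and 2, Cd2 and Zap70, called higher in non-malignant samples. The erythroid list mean was 5.58 to 5.76 in controls, 6.09 to 6.13 in non-malignant samples and 5.90 to 6.89 in tumors, with 0 of 3 tested markers called by limma (1 and 2 against controls at an unadjusted p under 0.05). Of 7 tested B cell markers, Cd22 rose in non-malignant samples and was lower in tumors than there, and Cd79b and Vpreb1 fell in tumors against controls, with list means of 5.73 to 6.01, 5.80 to 6.12 and 5.49 to 6.08. Vpreb1 was dim, under the 40th percentile on all tumors and on control arrays 1 and 3. Dendritic cell and thymic stroma lists had means of 6.20 to 6.59 and 5.63 to 6.30 over the 9 arrays. The part of these markers in the results above was not tested.

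**Figure D5:**
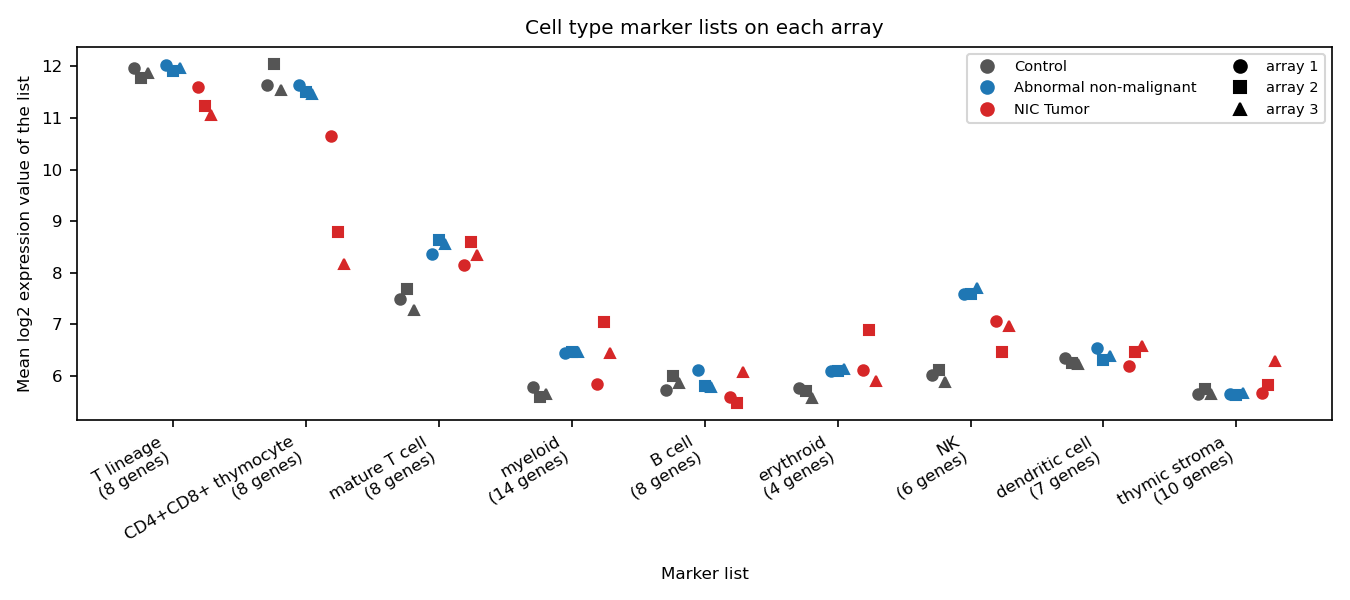
Mean log2 expression value of each cell type marker list on each array, by group (colour) and array number (symbol). The CD4+CD8+ thymocyte list is lowest in the tumors, and the mature T cell list lies higher on all 6 abnormal arrays than on the controls.

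For the genes called in at least 1 comparison, the tested genes with the nearest profile over the 9 arrays were sought, by the root mean square difference of values centred on each gene's mean. Nearest to Klf2 (whose own root mean square deviation was 1.37) were Cdk5rap2 (0.31), Bcat1 (0.33) and D430041D05Rik (0.34), and nearest to S1pr1 (1.27) were the lymphocyte GTPase gene Gimap4 (0.36), the transcription factor gene Runx3 (0.36) and Bcat1 (0.37). Runx3 read 5.72 to 5.96 in controls, 7.69 to 8.0 in non-malignant samples and 7.54 to 8.74 in tumors. Nearest to Itgb7 (0.80) were Parp9 (0.14), Shisa5 (0.20) and Eif1b (0.26), and nearest to Itgae (0.51) were Plxnc1 (0.10), Tnfrsf9 (0.17) and Nmi (0.18). Ccr4 (1.08) was nearest to Mettl6 (0.35), Izumo1r (0.39) and Gpr18 (0.41). Nearest to Ccr9 (2.16), at a greater distance, were Glcci1 (0.73), Agfg2 (0.74) and Bach1 (0.78).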

How the data were processed

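Per the labels, RNA of sorted cells was amplified to biotin-labelled cRNA and hybridised at a core facility. The values deposited are log2 expression of 45101 probe sets, which the authors normalized between arrays by a method not given in the sources used here; the base was read from the values, and array medians ran from 5.67 to 5.77. Probe sets with 1 gene symbol (34945) were assigned to genes through the platform annotation and RefSeq, by Entrez ID for 34741; some genes of the lists were not analysed here. A gene was tested if its brightest probe set exceeded that array's 40th percentile at least on 3 arrays.

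All 9 arrays entered a model of group means in limma 3.58.1 in R 4.3.3 (eBayes with trend, residual degrees of freedom 6), two-sided, and genes were called at a Benjamini-Hochberg adjusted p under 0.05 over all genes tested. Tables were prepared with pandas 2.3.3 in Python 3.11.15. The fit was tested on simulated data. Exact permutation of 3 against 3 cannot give a p under 0.1 and was not used. "At least" marks a group under the 40th percentile on all its arrays, each set to that percentile.

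The 10 genes, the lists and the settings were chosen with earlier results of these data known. The genes named are all 10, up to 2 called genes of each wider list per comparison with the smallest adjusted p, and the 3 nearest profiles of each called gene. Cd44, Spn, Fut4, Fut7, Gcnt1, Tpst2 in tumors, Klf3 and Foxo3 in tumors, Eif2s3y, Xist, Notch1, Cd69, S1pr4 and the single marker genes were chosen after their values were seen. Alternatives were other scaling, filters, probe set summaries and variance models, only the 2 groups compared, a replicate block, non-malignant arrays 2 and 3 averaged, a stricter threshold and leaving out each array.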

Additional observations from a re-analysis of the deposited data

How the results depend on the processing

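Over 20 alternative settings for each of the 30 differences of the 10 genes, 541 of 600 values kept their direction and their side of the threshold, 13 lost the call, 36 gained it and 10 changed sign. Those that changed sign were Cxcr4 in non-malignant samples against controls (0.026 with array weights, and from -0.30 to 0.051 with 1 array left out, 0.049 and 0.051 without control 2 and 3), Ccr7 in tumors against non-malignant samples (-0.062 with array weights against 1.53 as reported, and 0.94 to 2.40 with 1 array left out) and Klf2 in that comparison (0.050 with quantile normalization, 0.11 with non-malignant arrays 2 and 3 averaged, and from -0.38 to 0.12 with 1 array left out).

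Counts of called genes are given in the order non-malignant against control, tumor against control, tumor against non-malignant. Among all genes they were 469, 2084 and 562, and ran with 1 array left out from 205 to 708, 926 to 4119 and 53 to 3399. Among the 10 genes they were 5, 4 and 0 (2 to 6, 4 to 7 and 0 to 5), and in the wider set 10, 17 and 9 (4 to 12, 8 to 37 and 1 to 50). The widest counts in tumors came without tumor 1. With array weights all genes gave 2420, 4884 and 5698, the 10 genes 7 in both tumor comparisons and the wider set 33, 42 and 64. With only the groups compared all genes gave 1121, 842 and 110, and the wider set 19, 9 and 4. At an adjusted p under 0.01 all genes gave 233, 584 and 83, the 10 genes 3 in non-malignant samples, and the wider set 6, 7 and 3. With non-malignant arrays 2 and 3 averaged, the comparisons with non-malignant samples gave 218 and 73 over all genes and 6 and 3 in the wider set, and against controls 3 of the 10. Of the 10, 1 was called between tumors and non-malignant samples without the variance trend (1, Itgb7), with the filter at the 60th percentile (1, Itgb7) and with quantile normalization (1, Itga4). The cause of these shifts was not tested.

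With the replicate number as a replicate block, all genes gave 399, 1916 and 287 and the 10 genes 4, 4 and 0, with Ccr4 in non-malignant samples losing its call (adjusted p = 0.0661). Deviations from the group means correlated at -0.05 to 0.22 between arrays of the same number, over 0.1 in 3 of 9 pairs. Between arrays of different numbers they correlated at -0.26 to 0.21, over 0.1 in 3 of 18 pairs. Of the 9 arrays, 4 correlated best with an array of their own number. Such correlations cannot tell whether arrays of 1 number were paired, and the labels do not say.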

Other observations

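Cd69, whose product binds S1PR1 and takes it off the cell surface, read 7.89, 9.97 and 9.98 on non-malignant arrays 1, 2 and 3, against 7.96, 9.12 and 8.59 in controls and 7.85, 8.69 and 8.08 in tumors. Non-malignant arrays 2 and 3 thus had both the highest Cd69 and more S1pr1 than array 1 (8.36 and 8.49 against 7.51).

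Notch1, the gene of the study, read 9.81 to 10.34 in controls, 12.88, 12.97 and 12.87 in non-malignant samples and 12.92, 9.0 and 10.81 in tumors. Ccr7 was low (6.51) on tumor array 2, which had the lowest Notch1, and high on tumor arrays 1 and 3. Tumor array 2 also had the highest myeloid (7.04) and erythroid (6.89) list means of the 9 arrays. Any link of Ccr7 to these or to Notch1 was not tested. Ccr7 was also low (6.09 to 7.07) on the non-malignant arrays, where Notch1 was as high as on tumor array 1. Klf2, S1pr1 and Itgb7 on tumor array 2 (10.49, 8.68 and 9.13) stayed above all controls.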
